A study of Homo sapiens with 4 samples.

Results

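The RNase P and RNase MRP protein subunits were followed here through 10 genes: POP1, POP4, POP5, POP7, RPP14, RPP21, RPP25, RPP30, RPP38 and RPP40. They were taken by gene symbol, which found 11 rows among the 57820 gene models of each table, because the symbol RPP14 stands on 2 rows. The group was selected on the differences between BRD9 KO and LacZ control that these same libraries had already shown. Those differences are therefore given as a description, and no p-value is printed for any of the 10 genes. The data are RNA-seq of G401, an established rhabdoid tumour line of renal origin, grown in DMEM with 10% FBS. The study compared 2 BRD9 KO libraries, from cells in which the bromodomain gene BRD9 had been targeted with CRISPR-Cas9, with 2 LacZ libraries that served as control. Both groups share the loss of SMARCB1 that defines the line, and SMARCB1 was listed at 0 in all 4 libraries. The study could not isolate BRD9-deficient G401 clones, and the labels do not say whether a library came from a clone or from a mixed population. In such bulk RNA, fewer expressing cells and less RNA per cell cannot be told apart.

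RNase P is the ribonucleoprotein that cuts the 5′ leader from precursor tRNAs, and RNase MRP is its relative in the nucleolus, known for cutting precursor ribosomal RNA in the first internal spacer. Each is built around its own catalytic RNA, RPPH1 in RNase P and RMRP in RNase MRP, and most of the protein subunits belong to both particles. In RNase P the proteins pack into modules. POP5, RPP14, RPP30 and RPP40 lie together in a module, and the Alba-fold pair POP7 (Rpp20) and RPP25 form another. The others are the group of POP4 (Rpp29), RPP21 and RPP38, and the large scaffold POP1.

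The targeted gene and the depth were checked first. BRD9 measured 29.4 and 26.8 CPM, counts scaled to library size, in BRD9 KO cells against 48.2 and 53.8 CPM in controls, which is -0.86 ± 0.07 (SE) on the log2 scale (adjusted p = 2.84e-09, edgeR). Estimated counts summed to between 15053247 and 19559290 per library. The 10 subunit genes together took between 0.0234% and 0.0267% of the counts, and a single one had between 94 and 1126 counts in a library. All 10 passed the filter on low counts, as did 15288 genes in all. Pairs of values are given below as replicate 1, then replicate 2, BRD9 KO first. The replicate numbers are used here only to name the libraries. The study's methods give 2 biological replicates per sample, but neither they nor the labels say that these came from separate cultures. The errors and p-values below therefore measure the spread between libraries, which may be technical.

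The promoters of the subunit genes ranged widely in CpG and GC content, and no motif searched lay in all of them. RefSeq gave a window for 9 of the 10 genes, from 250 bases before to 50 after the start. These windows held between 15 and 44 CpG pairs, against a median of 14 over 35116 RefSeq promoters of the same length, and the GC content ran from 52.7% in RPP30 to 72.3% in POP7, against a median of 58.7%. RPP30 and POP5, with 15 and 19 CpG pairs, lay near the median in CpG and below it in GC content. Motif letters were searched on both strands of the whole window. The GC box GGGCGG lay in 7 of the 9 windows and in 45% of all promoters. The CCAAT box (letters CCAAT) lay in 4 of 9 and in 34.6% of all, the ETS core CCGGAA in 3 of 9 (POP4, POP7 and RPP38) and in 17.2%, and the NRF1 core GCGCATGC in 3 of 9 (POP4, POP5 and RPP14) and in 3.05%. The core was matched on both strands at overlapping positions in POP4 and in RPP14, which makes 1 site in each. The E-box CACGTG was found in POP7 alone, with 7.26% of all promoters holding it. The CREB/ATF letters TGACGT (7.98% of all), AP-1 TGANTCA (7.71%), TATA box TATAAA (11.5%) and YY1 core AAGATGG (5.84%) were in none of the 9 windows. The window of RPP14 was identical to that of HTD2, which is transcribed with it, and its RefSeq start lay 275 bases inside the RPP14 gene as GENCODE draws it. For RPP38 the RefSeq start lay 175 bases inside the GENCODE gene, so its ETS core, at -162 from the RefSeq start, lay within that gene. The ETS core of POP4 began at base 20 of the gene.

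The upstream sequences below belong to the gene that differed most in level between the groups (RPP40), to a higher gene whose window held both an ETS core and an E-box (POP7), and to the single gene that lay lower in BRD9 KO cells (POP5). They end 1 base before the first annotated start, run 5′ to 3′ along the gene, and carry in capitals the letters of the motifs searched. The sequences are those of RefSeq, and each matched GRCh37, the sequence of hg19, at exactly 1 place. RPP40 lies at chr6:5004298-5004521 on the minus strand, POP7 at chr7:100303494-100303743 on the plus strand and POP5 at chr12:121019206-121019455 on the minus strand.
RPP40: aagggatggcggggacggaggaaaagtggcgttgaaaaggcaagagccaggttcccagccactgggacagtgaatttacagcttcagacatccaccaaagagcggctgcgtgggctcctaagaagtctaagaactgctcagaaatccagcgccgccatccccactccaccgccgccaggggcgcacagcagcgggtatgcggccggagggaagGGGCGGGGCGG
POP7: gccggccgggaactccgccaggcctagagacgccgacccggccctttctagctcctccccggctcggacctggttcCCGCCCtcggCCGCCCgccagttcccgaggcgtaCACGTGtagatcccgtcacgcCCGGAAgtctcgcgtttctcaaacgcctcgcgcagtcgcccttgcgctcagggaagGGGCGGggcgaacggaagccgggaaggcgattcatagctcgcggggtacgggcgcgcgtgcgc
POP5: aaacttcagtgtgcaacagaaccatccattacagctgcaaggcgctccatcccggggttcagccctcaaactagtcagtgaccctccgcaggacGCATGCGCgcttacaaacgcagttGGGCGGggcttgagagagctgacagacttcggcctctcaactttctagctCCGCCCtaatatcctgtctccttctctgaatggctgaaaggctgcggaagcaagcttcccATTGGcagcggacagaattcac

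**Figure D1:**
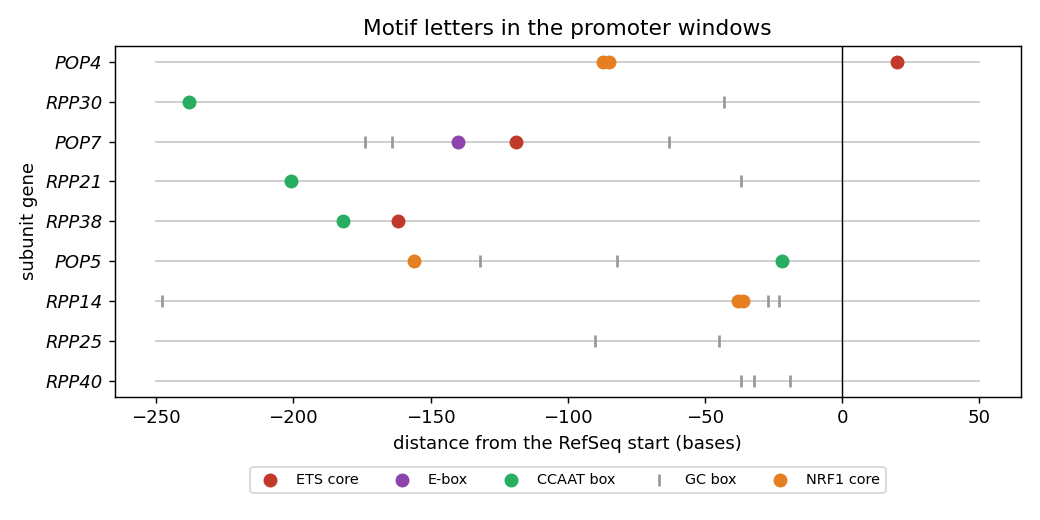
Position of motif letters in the RefSeq promoter windows of 9 subunit genes, ordered by their level. The x axis is the distance from the RefSeq start in bases and each grey line is 1 window; GC boxes occur in 7 windows, while the ETS core is seen in POP4, POP7 and RPP38 and the E-box in POP7.

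The subunit genes were expressed at unequal levels, and their order was nearly the same in every library. Levels are compared here in TPM, a measure of transcripts in which the authors divided reads by transcript length. POP4, whose product Rpp29 contacts the catalytic RNA, was the most abundant at a mean of 75.1 ± 4.33 TPM (SD over 4 libraries), and RPP40 the least at 13.9 ± 3.02 TPM, a ratio of 5.40. Between them stood RPP30 (48.9 TPM), POP7 (44.9 TPM), RPP21 (38.7 TPM), RPP38 (32.4 TPM), POP5 (28.6 TPM), RPP14 (27.2 TPM), POP1 (20.6 TPM) and RPP25 (18.5 TPM). The median over all genes tested lies close to POP1 and RPP25, since 52% of tested genes had a lower mean TPM than RPP25 and 54.9% a lower one than POP1. Of the 9 neighbouring pairs in this order, 7 had ranges over the 4 libraries that overlapped, and the 2 gaps lay between POP4 and RPP30 and between RPP14 and POP1. Ranks 1 to 4 and 8 to 10 were held by the same genes in each library, so that RPP30, for one, lay above POP7 in all 4 although their ranges overlapped. Ranks 5 to 7 changed hands: the order was RPP38, RPP14, POP5 in both BRD9 KO libraries and POP5, RPP38, RPP14 in both control libraries.

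**Figure D2:**
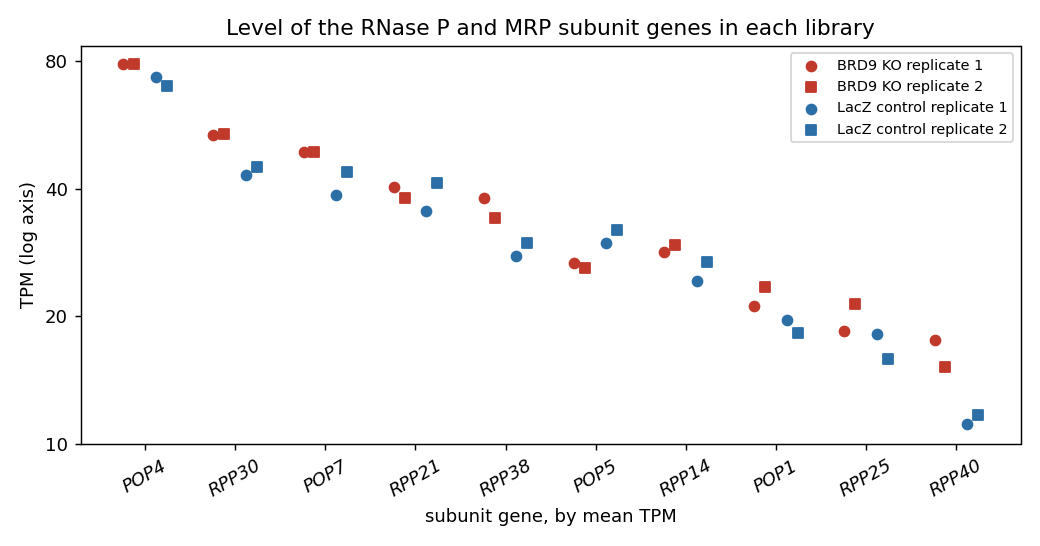
Level of each subunit gene in TPM (log axis) in the 4 libraries, with genes ordered by their mean. Red marks BRD9 KO and blue LacZ control, circles replicate 1 and squares replicate 2; the levels run from 11.2 TPM for RPP40 in a control library to 78.7 TPM for POP4 in a BRD9 KO library.

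Over the whole group, most subunit transcripts were somewhat more abundant in BRD9 KO cells and POP5 was less abundant. The median log2 fold change of the 10 genes was 0.25, ranging from -0.23 for POP5 to 0.47 for RPP40, while the median over all genes tested was -0.01. In CPM, both BRD9 KO libraries lay above both controls for 7 genes (34.1% of all tested genes did so), both lay below for 1 (34.5% of all), and the groups overlapped for 2. The edgeR fit over all genes called 6 of the 10 higher at an adjusted p under 0.05 (RPP14, RPP40, RPP30, POP7, RPP25 and RPP38), as it did 20.5% of all genes tested. It called 0 lower, against 18.1% of all, with 1 lower at an unadjusted p under 0.05 and 0 called lower by DESeq2 or by limma on log2(TPM + 1). Nothing is read from these counts, since the genes were chosen with this contrast known. The number of calls depended heavily on the tool: DESeq2, which the study used, called 1 of the 10 higher (RPP14) and 15.9% of all genes, and limma on log2(TPM + 1) called 2 (RPP30 and RPP40) and 8.77% of all. It was 3 without LacZ control replicate 1 (15.4% of all) and 3 without LacZ control replicate 2 (14.9% of all). The summed level of the 10 genes was 371 and 369 TPM in BRD9 KO replicates 1 and 2 and 321 and 334 TPM in LacZ control replicates 1 and 2.

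**Figure D3:**
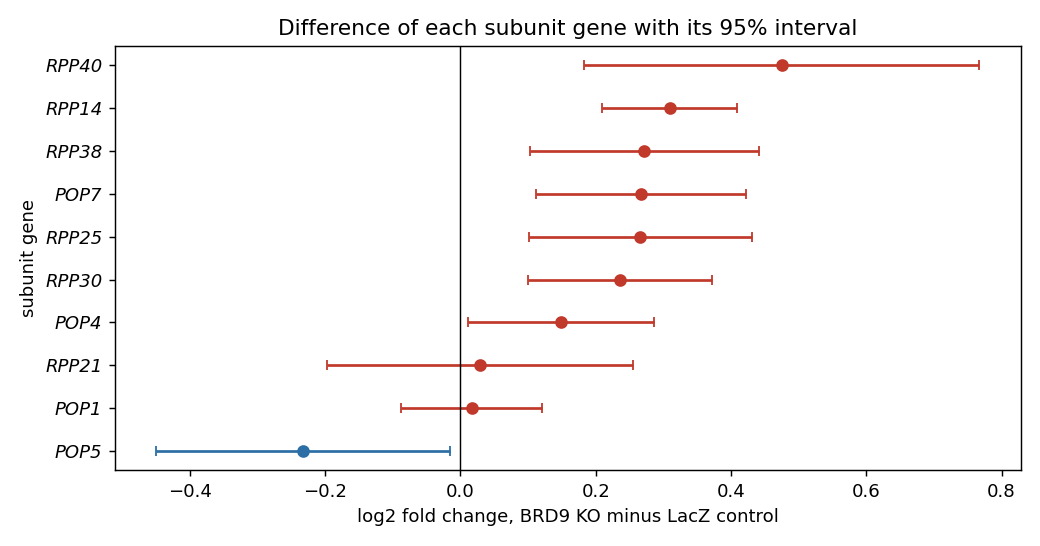
Log2 fold change of each subunit gene, BRD9 KO minus LacZ control, with the 95% interval of the edgeR fit over 4 libraries as horizontal bars. RPP40 lies highest at 0.47 and POP5 lowest at -0.23, and the intervals of RPP21 and POP1 cross 0. The intervals do not allow for the selection of these genes on this contrast, so an interval clear of 0 is not read as a test.

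RPP14 and RPP40 belong to the same module of the RNase P protein shell, and both were higher in BRD9 KO cells. RPP14 (ENSG00000163684.7; chromosome 3, 58291972 to 58310422, plus strand) measured 57.8 and 58.4 CPM in BRD9 KO cells against 45.6 and 47.9 CPM in controls. The 2 groups lay well apart, with a log2 difference of 0.31 ± 0.05 (SE), the most precisely measured difference of the 10. RPP14 was called in 12 of the 13 other settings, the exception being limma on log2(TPM + 1), where the difference was 0.18. The second row with this symbol (ENSG00000255154.3) is the model that GENCODE names HTD2, a mitochondrial dehydratase read from the same bicistronic transcript. It held between 31.9 and 39.1 counts, with a posterior standard deviation of up to 39.9% of the count, and a log2 fold change of 0.02 with a 95% interval from -0.55 to 0.59. Its exons share 3504 bases with those of RPP14, and RSEM divided the reads between them; with both rows summed the log2 fold change of RPP14 was 0.30.

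RPP40 (ENSG00000124787.9; chromosome 6, 4994951 to 5004297, minus strand) was the scarcest of the 10 and showed the widest difference. It measured 9.13 and 7.90 CPM in BRD9 KO cells against 6.24 and 6.06 CPM in controls. The groups did not overlap, but the 2 BRD9 KO libraries were spread more widely than the controls, and these values rest on 178, 129, 94 and 101 counts. The log2 difference was 0.47 ± 0.14 (SE), with a 95% interval from 0.18 to 0.77. The call was lost with DESeq2, without BRD9 KO replicate 1, and without either control library. The exons of RPP40 overlap those of the antisense gene LYRM4-AS1 over 80 bases, and its start lies 289 bases inside RPP40. LYRM4-AS1 stood at 2.72 and 2.63 CPM in BRD9 KO and 1.66 and 2.22 CPM in control libraries (log2 fold change 0.46, edgeR adjusted p = 0.173). The kit named by its catalogue number in the study's methods does not mark strand, and the part of such shared reads in the RPP40 difference was not tested.

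The module of RPP14 and RPP40 also holds POP5 and RPP30. POP5 is a small protein of the same family as RPP14, and RPP30 is the autoantigen of systemic sclerosis known as Rpp30. The transcripts of POP5 and RPP30 lay on opposite sides. RPP30 (ENSG00000148688.9; chromosome 10, 92631709 to 92668310, plus strand) measured 31.5 and 33.6 CPM in BRD9 KO cells against 27.7 and 27.5 CPM in controls. Both BRD9 KO values exceeded both controls, with a log2 difference of 0.24 ± 0.06 (SE). That call was lost with DESeq2 and on leaving out replicate 2 of either group. POP5 (ENSG00000167272.6; chromosome 12, 121016567 to 121019205, minus strand) measured 10.8 and 10.7 CPM in BRD9 KO cells against 12.2 and 13.0 CPM in controls. It was the only one of the 10 for which both BRD9 KO libraries lay below both controls. The log2 fold change of POP5 was -0.23 with a standard error of 0.10, from -0.45 to -0.02 at 95%, and it was not called in the edgeR fit or in any of the 13 other settings. Its direction was the same in all 13, between -0.27 and -0.19. The settings that summed rows of RPP14 or RPP21 left the counts of POP5 as they were, and all 13 reuse the same libraries.

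POP7 and RPP25 encode the Alba-fold heterodimer that binds the catalytic RNAs. The 2 transcripts differed by nearly the same amount, as did that of RPP38, which is outside this pair (log2 difference of 0.27). POP7 (ENSG00000172336.4; chromosome 7, 100303744 to 100305109, plus strand) measured 24.6 and 25.0 CPM in BRD9 KO cells against 19.9 and 21.3 CPM in controls. RPP25 (ENSG00000178718.5; chromosome 15, 75246759 to 75249113, minus strand) measured 21.2 and 21.5 CPM in BRD9 KO cells against 17.98 and 17.5 CPM in controls. For both genes the groups were separate. The log2 difference was 0.27 ± 0.07 (SE) for POP7 and 0.27 ± 0.08 (SE) for RPP25. Neither was called with DESeq2 or with limma on log2(TPM + 1), POP7 was not called without LacZ control replicate 1, and RPP25 was not called on leaving out replicate 2 of either group. RPP25L, a paralogue of RPP25 on chromosome 9 (34610483 to 34612101) that was not among the 10, stood at 19.1 and 18.9 CPM in BRD9 KO and 16.9 and 16.4 CPM in control libraries. Its log2 difference was 0.19 ± 0.08 (SE) (edgeR adjusted p = 0.0778). Per length it was the more abundant paralogue, at a mean of 34.4 TPM over the 4 libraries against 18.5 TPM for RPP25, and their ranges did not overlap. The start of SCAMP5, a secretory carrier protein gene on the other strand, lies at -447 bases from that of RPP25, and SCAMP5 itself was at 33.5 and 32.2 CPM in BRD9 KO and 31.0 and 33.5 CPM in control libraries.

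Among POP4, RPP21 and RPP38, RPP38 differed most and RPP21 least. RPP38 (ENSG00000152464.10; chromosome 10, 15139179 to 15181817, plus strand), an L7Ae-family protein that binds kink-turns in the RNA, measured 22.8 and 21.2 CPM in BRD9 KO cells against 17.6 and 18.9 CPM in controls. The groups were apart by more than their own spread, with a log2 difference of 0.27 ± 0.08 (SE). That call was lost with DESeq2, with limma on log2(TPM + 1), and on leaving out replicate 1 of either group. The start of RPP38-DT, a noncoding gene on the other strand, lies 139 bases inside RPP38, and their exons overlap over 140 bases. RPP38-DT had 2.02 and 7.36 counts in BRD9 KO cells and 4.16 and 8.39 in controls, and was not tested. Exons of RPP38 overlap those of NMT2 on the other strand over 470 bases. NMT2, an N-myristoyltransferase gene, lay on the other side, at 26.7 and 25.7 CPM in BRD9 KO and 28.2 and 28.7 CPM in control libraries (log2 fold change -0.12, edgeR adjusted p = 0.181).

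POP4 (ENSG00000105171.5; chromosome 19, 30097190 to 30108144, plus strand) stood at 30.3 CPM in both BRD9 KO libraries and at 28.2 and 26.6 CPM in the controls. The groups did not overlap, yet the difference was small, with a log2 difference of 0.15 ± 0.07 (SE), and no setting called it. RPP21 (ENSG00000241370.1; chromosome 6, 30312908 to 30314661, plus strand), a zinc-ribbon partner of Rpp29 that is generally assigned to RNase P and not to RNase MRP, measured 12.5 and 11.7 CPM in BRD9 KO cells against 10.9 and 12.7 CPM in controls. Its groups overlapped, with a log2 fold change of 0.03 and a 95% interval from -0.20 to 0.25. The read-through model TRIM39-RPP21 shares 452 exon bases with RPP21 and was listed at 0 in 3 of the libraries and at 1.08 CPM in LacZ control replicate 2. With its reads added, the log2 fold change of RPP21 turned to -0.03, so that no direction can be given for this gene.

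**Figure D4:**
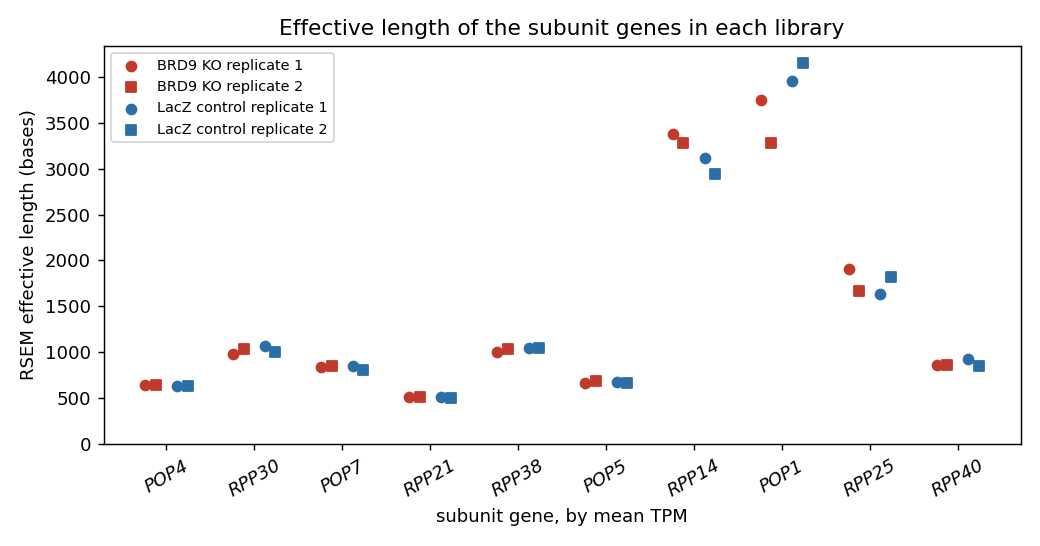
Effective length in bases, as RSEM estimated it, of each subunit gene in the 4 libraries (red BRD9 KO, blue LacZ control, circles replicate 1, squares replicate 2). POP1 and RPP14 show the widest distance between the groups, in opposite directions, and all genes but POP1, RPP14 and RPP25 lie between 506 and 1063 bases.

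Read counts and levels per length told different stories for POP1, the large scaffold subunit (ENSG00000104356.6; chromosome 8, 99129521 to 99172063, plus strand). In CPM the gene was flat, at 47.8 and 46.3 in BRD9 KO replicates 1 and 2 and 47.0 and 46.1 in LacZ control replicates 1 and 2, with a log2 fold change of 0.02 and a 95% interval from -0.09 to 0.12. In TPM both BRD9 KO libraries, at 21.1 and 23.4, lay above both controls, at 19.6 and 18.3. The effective length, which RSEM averages over the transcripts it assigns reads to, was 3753 and 3280 bases in BRD9 KO replicates 1 and 2 and 3952 and 4155 bases in LacZ control replicates 1 and 2. RPP14 went the other way, with 3379 and 3283 bases in BRD9 KO and 3118 and 2942 bases in control libraries. Its difference was accordingly narrower in TPM, at 28.4 and 29.5 against 24.2 and 26.8, than in CPM. Over the 10 genes, the effective lengths of the groups did not overlap for POP4 and RPP14, which were longer in BRD9 KO libraries (16.7% of all genes tested), nor for POP1 and RPP38, which were shorter (14.3% of all). The share of reads from each transcript is an estimate of RSEM and is not given in the gene tables, and with 2 libraries against 2 an exact permutation test cannot go below p = 0.333. In TPM, 8 of the 10 genes had both BRD9 KO libraries above both controls (31.3% of all genes tested) and 1, POP5, had both below (30.2% of all).

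The start of RIDA, an enamine deaminase gene on the other strand, lies at -122 bases from that of POP1. RIDA stood at 36.9 and 36.7 CPM in BRD9 KO and 37.9 and 37.6 CPM in control libraries, a log2 difference of -0.04 (adjusted p = 0.649, edgeR).

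The catalytic RNAs themselves were barely captured in these libraries. RPPH1 had 10 and 6 counts in BRD9 KO replicates 1 and 2 and 5 and 4 counts in LacZ control replicates 1 and 2. RMRP had 4 and 6 counts in BRD9 KO replicates 1 and 2 and 2 and 6 counts in LacZ control replicates 1 and 2. For RPPH1 both BRD9 KO counts were above both controls, and for RMRP the groups overlapped. Neither passed the filter on low counts, and no difference in either RNA was tested. Both RNAs are transcribed by RNA polymerase III and carry no poly(A) tail, and no source used here says whether poly(A) RNA was selected.

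Mitochondria process their tRNAs with a separate RNase P made of 3 proteins and no RNA. Of these 3, 1 was called higher by edgeR, as were 20.5% of all genes tested. TRMT10C, the methyltransferase subunit, went from 29.9 ± 2.55 to 36.8 ± 0.180 CPM (SD, n = 2), a log2 difference of 0.29 ± 0.07 (SE) (edgeR adjusted p = 0.00122). It was not called with limma on log2(TPM + 1) (adjusted p = 0.132, the highest of 11 other settings, whose lowest was 1.04e-05). HSD17B10, a dehydrogenase, was at 0.02 (edgeR adjusted p = 0.725) and KIAA0391, the nuclease subunit now named PRORP, at 0.05 (edgeR adjusted p = 0.448) on the log2 scale. Exons of KIAA0391 share 2858 bases with another tested gene on the same strand, between which RSEM divides reads.

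Enzymes that act on tRNA after RNase P moved in both directions. The lists were chosen with earlier results of these data known, and most genes named below had the smallest p in their list. Their adjusted p-values are therefore given as a description. For the lists that follow, 20.5% of all genes tested were called higher and 18.1% lower by edgeR, 38.6% in all, against 26.5% in all with DESeq2 and 16% with limma on log2(TPM + 1). Of 15 genes of 3′ end processing and tRNA splicing, 6 rose, 1 fell and 8 did not pass, with a median log2 fold change of 0.10. ELAC2, the nuclease RNase Z that trims the 3′ end, went from 99.1 ± 2.54 to 118 ± 0.814 CPM (SD, n = 2), which is 0.25 on the log2 scale (edgeR adjusted p = 4.9e-06). CLP1, an RNA kinase bound to the tRNA splicing endonuclease, rose by 0.53 (edgeR adjusted p = 6.08e-05), TRNT1, which adds the CCA end, by 0.29 (0.000749), and TSEN34, a subunit of the endonuclease, by 0.16 (0.00317). The gene that fell was SSB, the La protein that holds the 3′ end of new tRNAs, at -0.06 (edgeR adjusted p = 0.0486), named after its values were seen; it was called in 3 of 11 other settings, with adjusted p from 0.0202 to 0.385. TSEN34 was not called on the TPM scale or without LacZ control replicate 2, nor TRNT1 on the TPM scale. Of these 15 genes, 4 were called without LacZ control replicate 1, 4 without LacZ control replicate 2 and 3 with limma on log2(TPM + 1), against 7. On the other strand, exons of CLP1 overlap YPEL4 over 260 bases, those of TRNT1 overlap CRBN over 2865 and those of ELAC2 overlap ARHGAP44 over 32. On the same strand, TSEN34 overlaps CTD-3093M3.1 over 664 bases, TRNT1 overlaps RP11-97C16.1 over 494 and CLP1 overlaps MIR130AHG over 102. The part of shared reads in these differences was not tested.

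Of 23 tRNA-modifying enzymes, 6 rose, 1 fell and 16 did not pass, and the median was 0.11. The 7 calls are 30.4% of the list, against 38.6% of all genes tested. NSUN2, a cytosine methyltransferase, went from 98.7 ± 0.164 to 127 ± 1.33 CPM (SD, n = 2), which is 0.36 on the log2 scale (edgeR adjusted p = 2.54e-08). TRUB1 and PUS1, which make pseudouridine, rose by 0.28 and 0.29 (edgeR adjusted p = 0.000155 and 0.000931), and TRMT1, a guanine methyltransferase, rose by 0.24 (0.000502). TRDMT1, another cytosine methyltransferase, was the gene that fell, at -0.36 (edgeR adjusted p = 0.0318), named after its values were seen and called in 6 of 11 other settings (adjusted p from 0.0207 to 0.389). On the TPM scale, limma called 3 of the 23, against 7. TRUB1 was not called on that scale (adjusted p = 0.102, with a lowest value of 7.12e-08 over the settings).

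On the side of ribosomal RNA, where RNase MRP acts, 9 of 18 genes of precursor processing around the internal spacers rose, 1 fell and 8 did not pass, with a median of 0.12. PES1, of the PeBoW complex, went from 90.0 ± 3.32 to 114 ± 2.43 CPM (SD, n = 2), which is 0.33 on the log2 scale (edgeR adjusted p = 3.32e-07). WDR12 of the same complex rose by 0.17 (edgeR adjusted p = 0.00111), and TEX10, which belongs to a complex acting on the second spacer, by 0.16 (0.00312). FCF1, a nuclease of the small-subunit pathway, fell by 0.20 (edgeR adjusted p = 0.00613), a call lost with DESeq2, with limma on log2(TPM + 1) and without LacZ control replicate 2 (highest adjusted p of 0.165 over 11 settings, lowest 0.00224). Of the 18, 4 were called without LacZ control replicate 2, 3 with DESeq2 and 1 with limma on log2(TPM + 1), against 10. Over all genes the share called was 26.5% without that library, 26.5% with DESeq2 and 16% with limma, against 38.6%. Calls of WDR12 and TEX10 were lost on the TPM scale as well (adjusted p of 0.623 and 0.0732, with lowest values of 3.18e-05 and 0.000255 over the settings), and that of TEX10 without LacZ control replicate 2.

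**Figure D5:**
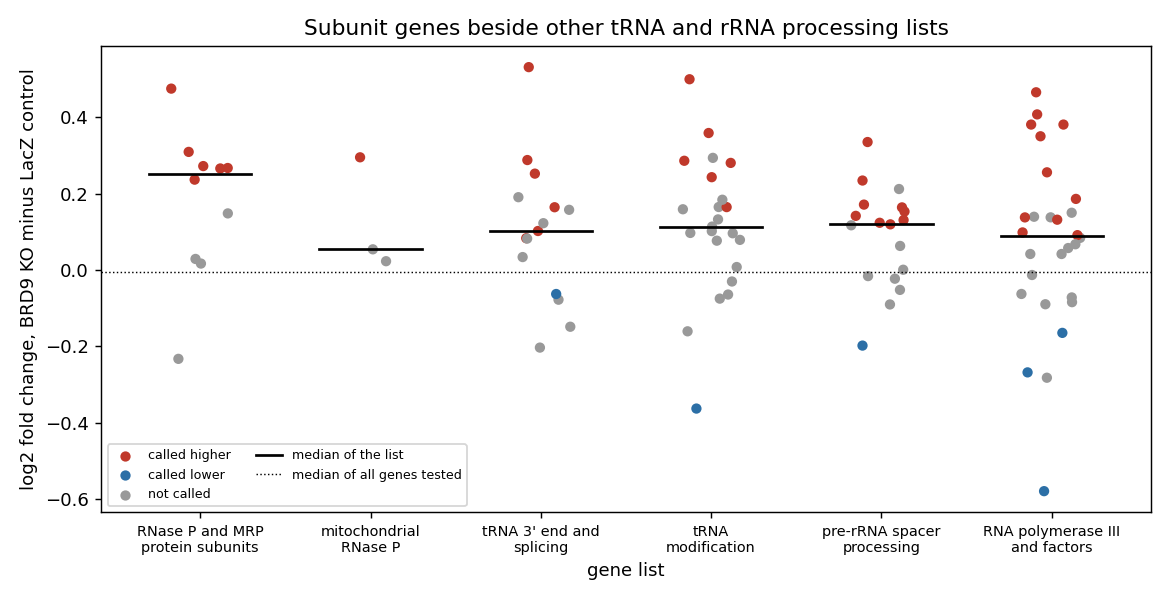
Log2 fold change, BRD9 KO minus LacZ control, of each tested gene in the subunit group and 5 companion lists (y axis), with black bars for list medians and a dotted line for the median of all genes tested. Red points were called higher and blue points lower by edgeR at an adjusted p under 0.05; the bar of the subunit genes lies at 0.25, and those of the companion lists lie between 0.05 and 0.12.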

How the data were processed

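Total RNA was the input to the 2 BRD9 KO and 2 LacZ control libraries that were sequenced. STAR and RSEM, on hg19, made the authors' gene tables, and DESeq2 is listed beside them in the submitters' notes, without versions. The deposited expected counts (estimated counts) are unscaled, and RSEM divides reads shared between genes. The authors' deposited TPM values are scaled within a library by effective length. The deposited effective length and posterior standard deviation are RSEM estimates and were treated as a score.

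Expected counts were rounded. Genes were tested together by quasi-likelihood in edgeR (4.0.16, under R 4.3.3), two-sided, after filterByExpr and TMM scaling, with robust dispersions, no covariates, Benjamini-Hochberg adjusted p-values and calls at an adjusted p under 0.05. CPM values are TMM-scaled, log2 differences subtract LacZ control from BRD9 KO, and standard errors follow from the F statistic. Totals of 15053247 to 19559290 counts put the floor of 3 counts at 0.153 to 0.199 CPM, for counting error only.

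Alternatives were DESeq2 1.42.0, limma 3.58.1 on log2(TPM + 1), RLE scaling, library totals alone, no filter, at least 1 CPM in all 4 libraries, replicate number as a block, and each library left out. Summing both RPP14 rows, with or without adding TRIM39-RPP21 to RPP21, was added after the data were seen. Replicates differed by more than counting noise (chi-square per degree of freedom of 1.59 and 1.62) and were kept apart. Tested on simulated data, the fit returned the fold changes drawn and its unadjusted p-values were near their nominal rate. The share of false genes among calls was above the threshold set, so edgeR calls are less certain than their adjusted p. The simulation changed far fewer genes than were called here, and only upward, so its share of false calls need not hold for these data.

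The members, companion lists and tests were chosen with earlier results of these data known. Genes named were BRD9, all members, their RNAs, RPP25L, mitochondrial RNase P, up to 4 called genes of each other list by smallest p, and genes overlapping a member or starting within 1000 bases on the other strand. Coordinates come from GENCODE v44 on GRCh37, promoters from RefSeq (GRCh38.p14).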

Additional observations from a re-analysis of the deposited data

How the results depend on the processing

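The BRD9 log2 fold change stayed below 0 and called in all 11 alternatives, and the median of the subunit genes stayed between 0.22 and 0.27. The number of subunit genes called higher fell from 6 to 1 with DESeq2 and to 2 with limma on log2(TPM + 1), while the share of all genes called higher went from 20.5% to 15.9% and 8.77%. It ran from 3 to 4 with a library left out (14.9% to 16.9% of all genes). Without LacZ control replicate 1 or 2 it was 3. With DESeq2 the calls were 3 in pre-rRNA spacer processing (10 in the edgeR fit) and 6 among RNA polymerase III and its factors (14). With limma on log2(TPM + 1) they were 0 in mitochondrial RNase P, 3 in tRNA 3′ end processing and splicing, 3 in tRNA modification, 1 in pre-rRNA spacer processing and 6 among RNA polymerase III and its factors, against 1, 7, 7, 10 and 14. With a library left out they ran from 4 to 6 in 3′ end processing and splicing, from 4 to 9 in spacer processing and from 9 to 11 among RNA polymerase III and its factors. A group reduced to 1 library was assumed to have the spread of the other. Calls in these companion lists count both directions. Over all genes tested, the share called in either direction went from 38.6% to 26.5% with DESeq2 and to 16% with limma on log2(TPM + 1). That share was also lower with each library left out, so calls fell over all genes as well as in these lists. In spacer processing they fell more steeply than that share with both DESeq2 and limma. Among RNA polymerase III and its factors they did so with DESeq2. The cause of these changes was not tested.

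Deviations of same-numbered libraries correlated at -0.05 over genes. With 2 libraries per group, this cannot tell whether same-numbered libraries were handled together. With the replicate block 6 subunit genes were called higher, and 21.1% of all genes tested. Calls over all genes in both directions went from 5901 to 6109. In either direction, DESeq2 called 3585 of 13537 genes, limma 2444 of 15288 and edgeR 5901 of 15288. Depth limits RPP40 most, at 94 to 178 counts.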

Other observations

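Genes of RNA polymerase III, which transcribes tRNAs and both catalytic RNAs, were also listed. Of 28 genes of the polymerase and its factors, 11 rose, 3 fell and 14 did not pass, with a median log2 fold change of 0.09, while 20.5% of all genes tested were called higher and 18.1% lower. Of the 28, 9 were called without LacZ control replicate 2, 6 with DESeq2 and 6 with limma on log2(TPM + 1), against 14, and over all genes the shares were 26.5%, 26.5% and 16%, against 38.6%. POLR3A, the largest subunit, went from 65.8 ± 1.51 to 90.6 ± 3.53 CPM (SD, n = 2), which is 0.47 on the log2 scale (edgeR adjusted p = 2.13e-08), GTF3A, the 5S gene factor TFIIIA, rose by 0.26 (2.3e-05) and GTF3C1, the largest subunit of TFIIIC, by 0.13 (6.53e-05). The GTF3C1 call was lost with limma on log2(TPM + 1) (adjusted p = 0.697, the highest of 11 alternatives, the lowest being 6.93e-07). POLR3GL fell, with 10.2 ± 0.624 CPM in BRD9 KO cells and 15.2 ± 0.0137 CPM in controls (SD, n = 2), which is -0.58 on the log2 scale (edgeR adjusted p = 0.000123), and passed in all 11 alternatives.

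POLR3G, singled out after its values were seen, is the paralogue that takes the place of POLR3GL in the polymerase. It measured 15.2 and 13.6 CPM in BRD9 KO cells against 9.88 and 12.2 CPM in controls, and the log2 fold change of POLR3G was 0.38 (edgeR adjusted p = 0.0112). The call was lost with DESeq2 (adjusted p = 0.0813), with limma on log2(TPM + 1) (0.707), and on leaving out replicate 1 of BRD9 KO (0.0995) or of the controls (0.178), and the range over 11 alternatives ran from 0.0016 to 0.707.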
